A study of Drosophila melanogaster with 6 samples.

Results

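The retinin cluster is a run of small genes on chromosome 3L of Drosophila melanogaster, and it is described here together with Crys, a corneal lens gene on chromosome 2L. Members were taken by name: the rows of the deposited count table numbered between CG13040 and CG13069, with CG34247 and retinin, which gave 29 genes, and Crys. No row carries the symbol Crys. The row Cry was taken as Crys, because Cry is an older name of both Crys and the cryptochrome gene cry, and cry has a row of its own. This made 30 members among the 16727 genes of the table. CG34247 and CG13053 were known as large rises in this same comparison when the members were chosen, so the members' differences between the days are given as a description, without a test.

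Messenger RNA of eye-antennal imaginal discs, the larval tissue that forms the eye, antenna and head capsule, was counted as tags near the 3′ end of transcripts. The day 11 group held 3 libraries from discs taken 11 days after egg laying, when growth was complete, and the day 5 group held 3 libraries from discs taken 5 days after egg laying, when discs were growing. All larvae had the genotype y w; +/+; +/+, were kept at 25 °C and ate food made with the yeast strain YPH erg2∆::TRP1, which cannot supply the precursors of moulting hormone, so that they did not pupate. Each library pooled at least 30 discs. The days therefore differ in age, in time on this food and in growth at once, which cannot be told apart, and in such bulk tissue more cells of a type cannot be told apart from more RNA per cell.

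The corneal lens of the fly is a layer of chitin and secreted protein over each facet of the eye, laid down by cone cells and primary pigment cells during normal pupal life. Crys encodes drosocrystallin, a chitin-binding protein of that lens, and retinin encodes a small lens protein that takes part in the anti-reflective coating of the cornea. Most of the other members are uncharacterised small genes, named by number only. Their likeness to retinin in sequence was not analysed here, so they are called cluster genes by position.

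Total counts per library were 7670180 to 9049513 at day 11 and 6542782 to 7950251 at day 5, of which the RNA genes CR40469 and CR34335 took 26.3% to 40.8% at day 11 and 14.5% to 19.0% at day 5. Tags of genes listed as markers of other tissues were present and uneven, and the part of other tissues in the members' values was not tested. Beside the calls given for these lists, 19.1% of all 8010 tested genes were higher and 17.9% lower. The 6 salivary glue genes (Sgs) summed to 103.6, 111.3 and 1225 CPM at day 11, against 8.20, 17.3 and 4.93 CPM at day 5, and all 6 were higher in every day 11 library than in any day 5 library. Their log2 fold changes were 5.28 to 5.74 for the 5 with a count at day 5, and Sgs1 was at 0 there. Of the 7 salivary gland markers tested, with a median of 5.52, edgeR called 2 higher and 1 (CrebA) lower, and 6 were higher at an unadjusted p of 0.05. Without day 11 replicate 3 the log2 fold changes were 7.03 for CG34247, 7.74 for CG13053, 6.51 for CG13054 and 7.46 for Crys. Fat body markers summed to 97.6 to 1427 CPM at day 11, highest in replicate 2, and 78.3 to 715.0 CPM at day 5. Of 6 tested, edgeR called none, with 1 lower at an unadjusted p of 0.05 and 1 lower by DESeq2. Haemocyte markers (125.1 to 395.4 CPM at day 11, 66.6 to 99.9 CPM at day 5) were higher in 4 of 6 tested. Tracheal markers (1974 to 2300 CPM at day 11, 1203 to 1350 CPM at day 5) were also higher in 4 of 6, and 5 of the 8 listed are on the chitin and matrix list too. Brain and neuroblast markers (581.6 to 828.8 CPM at day 11, 559.9 to 640.9 CPM at day 5) and muscle markers (181.7 to 245.9 CPM at day 11, 258.7 to 743.5 CPM at day 5) each had 1 of 8 higher and 1 lower. Most of the brain sum was grh and elav, at 497.1 and 241.1 CPM in day 11 replicate 1. As elav is on the photoreceptor list too, that sum is no measure of brain tissue. Ring gland markers, of the hormone-making gland near the brain, summed to 9.85, 58.1 and 6.54 CPM at day 11 and 23.6, 107.5 and 384.6 CPM at day 5. Of 6 tested, edgeR called none, none at an unadjusted p of 0.05 either, and DESeq2 called 1 lower.

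The 29 cluster genes lay between 16249560 and 16333782 of chromosome 3L (assembly release 6, dm6), a span of 84.2 kb, with 16 on the minus and 13 on the plus strand. Their annotated proteins ran from 79 to 314 amino acids with a median of 140, and their transcripts had a median length of 606 nt, against 2004.5 nt for all genes tested. 22 of the 29 had 2 exons, the usual form in this cluster, 5 had 1 exon and CG13048 and CG13040 had a median of 2.5 over their transcripts. Crys lies on the plus strand of chromosome 2L from 11944129 to 11947131.

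Most of the cluster had no tags or few in these discs, and a short stretch at its left end held most of the members' tags at day 11. Of the 30 members, 9 had no count in any library, namely CG13069, CG13066, CG13050, CG13049, CG13048, CG13047, CG13045, CG13063 and CG13041. A further 8 had 1 to 10 counts over all 6 libraries, 5 had more but did not pass the low-count filter, and 8 passed it and were fitted. A library's 3 counts, the most that a count of 0 allows, stand for 0.332 to 0.459 CPM (counts per 1000000 counts of the library) before scaling, so lower levels were not detectable. Summed over the 30 members, the level was 856.7, 1001 and 860.9 CPM in the day 11 libraries, against 35.1, 48.1 and 63.0 CPM in the day 5 libraries. CG34247 alone gave 78.1%, 84.1% and 80.9% of the members' tags at day 11, and 9.81%, 5.26% and 18.1% at day 5. Without CG34247 the sums were 187.3, 159.1 and 164.4 CPM at day 11 and 31.6, 45.5 and 51.6 CPM at day 5. These are shares of 3′ tags, not divided by transcript length.

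**Figure D1:**
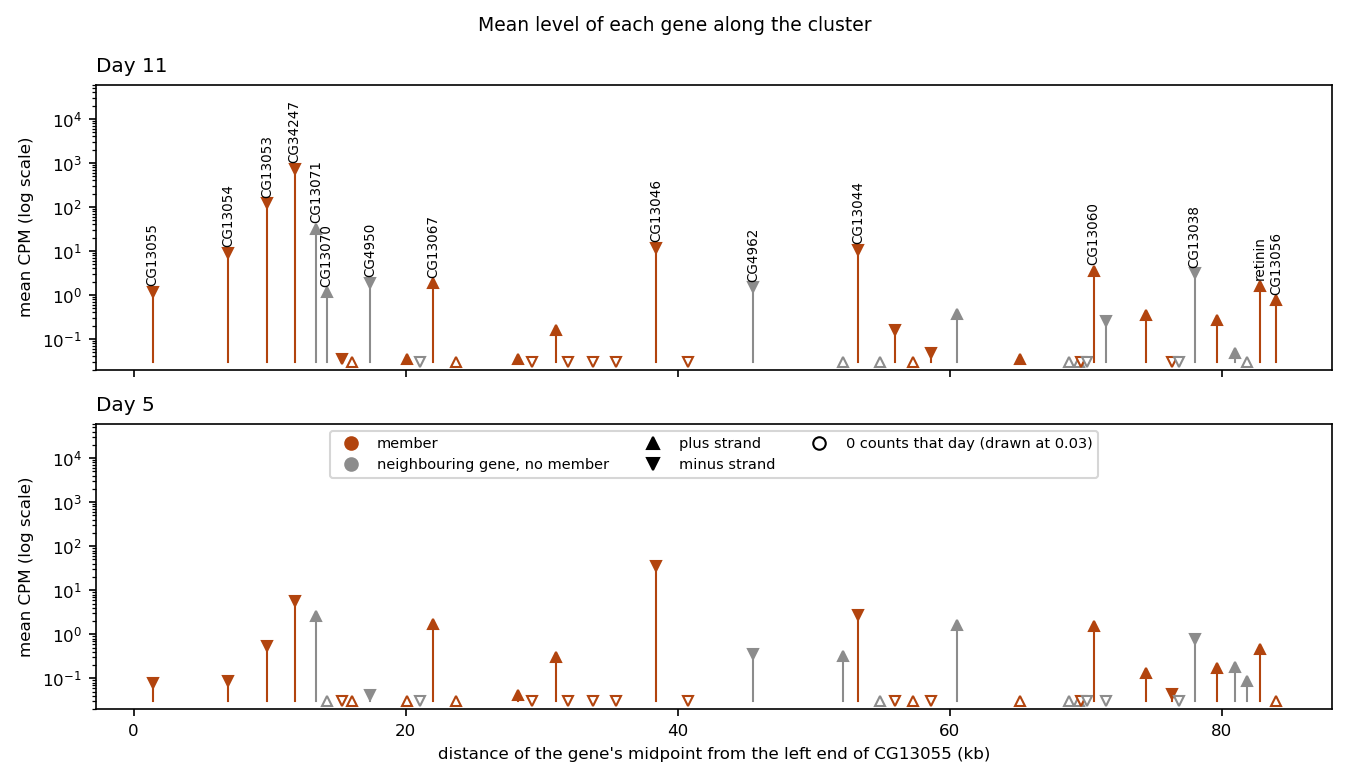
Mean TMM-scaled CPM of the 29 cluster genes and the 16 other genes of the span, by distance in kb from the left end of CG13055, at day 11 (upper) and day 5 (lower), on a log scale. At day 11 the tallest values are those of CG13053 (119.3 CPM) and CG34247 (735.9 CPM) at the left end, while the 9 members with no count are drawn as open symbols on both days.

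Of the 8 fitted members, 5 were higher and 1 lower at day 11 at an adjusted p of 0.05 in edgeR over all genes, beside 37% of all 8010 tested genes called, 19.1% higher and 17.9% lower. Among the 4168 tested genes with transcripts no longer than the longest cluster gene 38.4% were called, 14.2% higher and 24.1% lower, and among the 500 with transcripts up to 615 nt, the median length of the members, 47% were called, 13% higher and 34% lower. Nothing is read from the members' count, since the choice of members used the same comparison. The values of the days did not overlap for 6 of the 8, beside 50.8% of all tested genes (25.6% higher and 25.2% lower). The filter admits a gene through 1 day alone, so the 8 do not stand for the 30. The median log2 fold change of the 8 was 4.20, beside -0.01 for all genes tested, -0.19 for the 4168 shorter genes and -0.41 for the 500 shortest. Without Crys, which lies on another chromosome, the 7 fitted cluster genes had a median of 1.93, with 4 higher and 1 lower.

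The 2 lens genes were at quite different levels of detection. Crys, listed as Cry, had 11.9, 8.30 and 8.58 CPM at day 11, against 0, 0.120 and 0 CPM at day 5. At day 5 this was 1 tag in 3 libraries, against 224 tags in the day 11 libraries. The pooled ratio was 234.2 with a 95% exact counting interval of 41.6 to 9290, and the fitted log2 fold change was 7.37 (SE 0.63). Without replicate 2, which held the tag, day 5 was at 0. The pooled day 11 level of Crys was 50.8 times a floor of 3 counts over the remaining day 5 libraries. The fitted value there, 9.20, depends on the prior count and is no measured fold. With all libraries, 11 of the 8010 genes tested had a fold change at least as high as Crys, itself included. That rank rests on the 1 tag at day 5.

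retinin, the gene that names the cluster, was barely detected on either day. On the plus strand from 16331933 to 16332789, it had 0.428, 2.31 and 2.04 CPM at day 11 and 0.397, 0.482 and 0.506 CPM at day 5. With all libraries it did not pass the low-count filter. Replicate 1 of day 11 lay within the day 5 range, and the other two lay above it. Pooled by day, 33 tags at day 11 and 11 at day 5 gave a ratio of 3.14 (95% exact counting interval 1.55 to 6.88), which leaves the spread between libraries out. Without day 11 replicate 1 retinin passed the filter and the threshold, with a log2 fold change of 2.19. Without day 5 replicate 1, 2 or 3 retinin passed the filter but was not called (1.61, 1.73 and 1.77). With no low-count filter retinin was not called either (1.70). Its right-hand neighbour CG13056 had 8, 9 and 0 counts at day 11 and none at day 5. The pooled day 11 level of CG13056 was 5.92 times a floor of 3 counts over the day 5 group, while day 11 replicate 3 held no tag.

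At the left end, consecutive genes all had more tags at day 11. CG34247, on the minus strand from 16261185 to 16261605 with a protein of 83 amino acids, had 669.5, 841.7 and 696.5 CPM at day 11, against 3.44, 2.53 and 11.4 CPM at day 5. The days were far apart, and day 5 replicate 3 stood above the other day 5 libraries. The log2 fold change of CG34247 was 6.99 (SE 0.61), and 7.94 without that library. That same library had the highest sum of ring gland markers, 384.6 CPM, whose part in this day 5 value was not tested. At day 11 that sum was 6.54 to 58.1 CPM.

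CG13053, on the minus strand from 16259037 to 16259722 with 91 amino acids, lies 1462 nt to the left of CG34247 and was the fitted member with the smallest range at day 11. It had 121.7, 117.6 and 118.5 CPM at day 11, against 0.529, 0.241 and 0.885 CPM at day 5. The highest day 11 library exceeded the lowest by 1.03 times. The day 5 values rest on 4, 2 and 7 tags. The log2 fold change of CG13053 was 7.72 (SE 0.26), and 8.23 without day 5 replicate 3. With all libraries, 6 of the 8010 tested genes, itself included, had a fold change as high. CG13053 was known as a large rise when the members were chosen, so this rank is a description.

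CG13054 lies 1845 nt further left, on the minus strand from 16255852 to 16257191, and its annotated protein has 314 amino acids, the longest in the cluster. It had 9.85, 8.30 and 8.72 CPM at day 11, against 0.265, 0 and 0 CPM at day 5. The days were far apart. The log2 fold change of CG13054 was 6.48 (SE 0.64) and rests on 2 tags at day 5, both in replicate 1; the pooled ratio was 107.7 (counting interval 29.4 to 895.1). Without that library day 5 was at 0. The pooled day 11 level of CG13054 was 49.0 times the same floor of 3 counts over the remaining day 5 libraries. CG13055, the leftmost member, on the minus strand from 16249560 to 16252355, had 22, 2 and 6 counts at day 11 and 0, 2 and 0 at day 5. Its pooled ratio was 15.7 with a counting interval of 3.98 to 135.4, and its low replicate 2 of day 11 held as many tags as day 5 replicate 2.

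**Figure D2:**
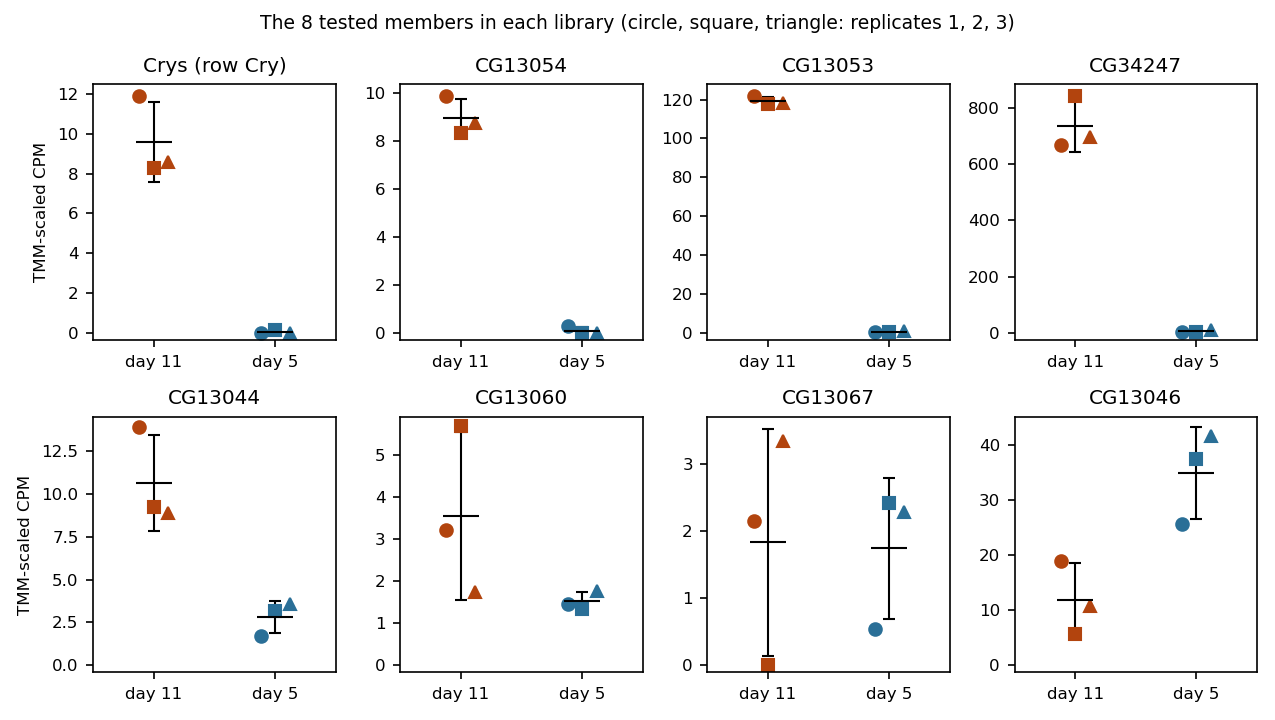
TMM-scaled CPM of the 8 fitted members in each library, day 11 left of day 5, with the mean and SD of 3 libraries; symbols mark the replicates. Crys, CG13054, CG13053, CG34247 and CG13044 were higher in every day 11 library than in any day 5 library, CG13046 was lower, and CG13060 and CG13067 overlapped.

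In the rest of the cluster the fitted genes differed in direction. CG13044, on the minus strand from 16302490 to 16303178, had 13.9, 9.22 and 8.87 CPM at day 11, against 1.72, 3.13 and 3.54 CPM at day 5. The days did not overlap, and the log2 fold change was 1.93 (SE 0.34). An annotated antisense RNA, CR45890, covers 635 nt of CG13044. How the counting treated strand is not stated by the labels, so tags of the pair cannot be told apart.

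CG13046 was lower at day 11. On the minus strand from 16287580 to 16288422, it had 18.9, 5.69 and 10.8 CPM at day 11, against 25.7, 37.5 and 41.7 CPM at day 5. All day 11 values lay below all day 5 values, and the highest day 11 library exceeded the lowest by 3.33 times. The log2 fold change of CG13046 was -1.54 (SE 0.41). The call of CG13046 was lost without day 5 replicate 2 (-1.51), without day 5 replicate 3 (-1.40) and without day 11 replicate 3 (-1.47), and with no low-count filter (-1.55).

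CG13060 and CG13067 overlapped between the days. CG13060, on the plus strand from 16319856 to 16320454, had 3.21, 5.69 and 1.74 CPM at day 11, against 1.46, 1.33 and 1.77 CPM at day 5, so that replicate 3 of day 11 lay inside the day 5 range. Its log2 fold change was 1.21 (SE 0.51), short of the adjusted threshold, and 1.54 and past it without day 11 replicate 3. CG13067, on the plus strand from 16271282 to 16271918, had 2.14, 0 and 3.34 CPM at day 11, against 0.529, 2.41 and 2.28 CPM at day 5. Its replicate 2 of day 11 held no tag where replicates 1 and 3 held 20 and 23, and its log2 fold change was 0.08 (95% interval -2.02 to 2.18).

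The remaining detected members stayed near the counting floor. CG13059 had 9 tags at day 11 and 3 at day 5, a depth-corrected ratio of 3.14 with a counting interval of 0.783 to 18.0. CG13064 had 4 tags at day 11 and 7 at day 5 (ratio 0.597, interval 0.128 to 2.35), and CG13058 had 6 at day 11 and 4 at day 5. CG13043 had 4 tags at day 11 and none at day 5. CG13051, CG13068, CG13062 and CG13042 each had 1 tag, at day 11, CG13040 had 1 at day 5, and CG13065 had 1 on each day. In all, 20 members had a tag at day 11 and 15 at day 5.

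Members differed in which replicate of a day held their highest value. Of the 8 fitted members, 5 were highest in replicate 1 at day 11, 2 in replicate 2 and 1 in replicate 3. CG34247 was highest in replicate 2, at 1.14 times its day 11 mean, while CG13044 and CG13046 were highest in replicate 1, at 1.30 and 1.61 times theirs. At day 5, 5 of the 8 were highest in replicate 3. There CG34247 stood at 1.97 times its day 5 mean, and CG13053 at 1.60 times. The highest day 5 values of CG13054 and Crys rest on 2 tags and 1 tag.

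**Figure D3:**
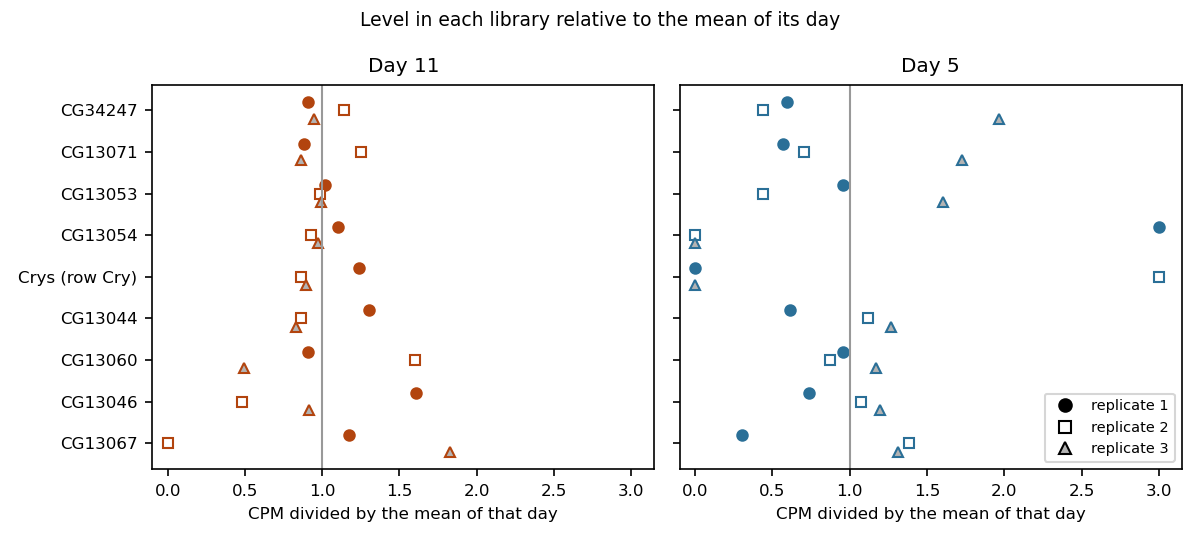
CPM of each fitted member and of the neighbour CG13071 in each library, divided by the mean of its day, at day 11 (left) and day 5 (right). CG13053 varied least at day 11 (0.99 to 1.02 times its mean), CG13046 spread from 0.48 to 1.61 times, and CG34247, CG13071 and CG13053 were all highest in replicate 3 at day 5.

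Genes of the span that are not members were chosen by position and could be tested. Of 16 such neighbours, 6 had no count and 8 were too low to test. Beside 19.1% of all 8010 tested genes higher and 17.9% lower, both tested neighbours rose. The filter admits a gene through 1 day alone, so the tested genes do not stand for the 16. CG13038, with 10, 5 and 3 counts at day 5, passed it through its day 11 libraries. CG13071, on the plus strand from 16262740 to 16263247, is the next gene after CG34247, 1134 nt away and on the opposite strand, and is uncharacterised. It had 28.1, 39.8 and 27.5 CPM at day 11, against 1.46, 1.81 and 4.43 CPM at day 5 (log2 fold change 3.62, SE 0.36, edgeR adjusted p = 5.37e-05), and the log2 fold change was 4.26 without day 5 replicate 3. Like CG34247, it was highest in replicate 2 at day 11 and in replicate 3 at day 5. CG13070, 95 nt further right, had 6, 3 and 16 counts at day 11 and none at day 5. Its pooled day 11 level was 8.71 times a floor of 3 counts over the day 5 group. CG13055, CG13054, CG13053, CG34247, CG13071 and CG13070 are thus 6 consecutive genes over 14.6 kb, from 16249560 to 16264151, each with more tags at day 11. This grouping was made after their values were seen and has no test.

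The next genes to the right differed in their tags. CG13051, 561 nt beyond CG13070, had 1 tag in all, and CG13069 had none. CG4950, the next neighbour, had 5, 23 and 10 counts at day 11 and 0, 0 and 1 at day 5. More tags at day 11 were therefore not limited to the genes up to CG13070. The noncoding RNA gene CR32160, named here after its values were seen, differed the other way, with 6, 2 and 1 counts at day 11 and 8, 23 and 8 at day 5 (pooled ratio 0.241, counting interval 0.103 to 0.506). Far to the right, CG13038, on the minus strand, rose. It had 2.03, 2.92 and 4.22 CPM at day 11, against 1.32, 0.602 and 0.379 CPM at day 5 (log2 fold change 1.97, SE 0.58, edgeR adjusted p = 0.0196). CG4962, a neighbour with 18, 3 and 14 counts at day 11 and 0, 8 and 1 at day 5, was called, among the settings tried, only without day 5 replicate 2 (log2 fold change 4.21), where 1 tag was left at day 5. The call of CG13038 was lost without day 5 replicate 2 (1.82), day 5 replicate 3 (1.65) or day 11 replicate 3 (1.67), and the value became 2.58 when day 5 replicate 1 was left out. Within 50 kb outside the cluster, 12 of 27 genes were tested. Beside 19.1% of all 8010 tested genes higher and 17.9% lower, edgeR called none of the 12 higher and 3 lower (l(3)72Dn, PDCD-5 and MED10). None of those tested was higher there at an unadjusted p of 0.05, or by DESeq2 or limma-voom, either. Among untested flanking genes, Cpr72Ea had 7, 35 and 13 counts at day 11 and 1, 7 and 8 at day 5. Cpr72Eb had 28, 2 and 7 counts at day 11 and 0, 0 and 3 at day 5. CG4998 differed the other way, with 2, 1 and 1 counts at day 11 and 14, 8 and 3 at day 5.

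The other genes of the corneal lens differed in whether they were detected. Of the 4 lens genes listed, Crys and retinin are members. Cpr66D, a chitin-binding lens protein gene, rose. It had 30.7, 49.8 and 37.9 CPM at day 11, against 4.37, 6.14 and 5.31 CPM at day 5 (log2 fold change 2.89, SE 0.23, edgeR adjusted p = 4.77e-06). Cpr72Ec, a lens gene that lies 32.1 kb to the right of the cluster, had 2, 2 and 0 counts at day 11 and none at day 5.

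Of 10 genes of cone and pigment cells, which make the lens, 5 rose and 1 fell, with a median log2 fold change of 0.62. The gene that fell was B-H2 (log2 fold change -0.97, SE 0.33, edgeR adjusted p = 0.0361), and limma-voom called none of the 10 lower. sv, the Pax2 gene of cone cells, averaged 9.29 ± 3.55 CPM at day 11 and 1.19 ± 0.406 CPM at day 5 (SD, n = 3 each; log2 fold change 2.96, SE 0.42, edgeR adjusted p = 0.000293). The transcription factor genes ct and pros, which are also on the list of eye transcription factors below, rose by 0.67 and 1.01 on the log2 scale. The calls of pros and ct were lost when counts were scaled by library totals alone, with log2 fold changes of 0.78 and 0.42. That of pros was also lost without day 11 replicate 1 (0.73) or 2 (1.09), or day 5 replicate 1 (1.05) or 3 (0.75).

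Of 16 tested genes that make or shape chitin and the apical matrix, 11 rose and 1 fell, with a median of 0.65. Cht5, a chitinase gene, averaged 26.2 ± 3.75 CPM at day 11 and 0.556 ± 0.284 CPM at day 5 (SD, n = 3 each; log2 fold change 5.54, edgeR adjusted p = 6.34e-07). The chitin deacetylase genes Cda4 and serp rose by 1.89 and 1.32 on the log2 scale, and tyn, a ZP-domain matrix gene, fell by 2.02. Of 122 cuticle protein genes 39 had no count and 27 were tested, of which 9 rose and 5 fell (median 0.57). TwdlT, Lcp65Ad and Cpr51A rose by 4.19, 3.54 and 2.95 on the log2 scale. The lens, cone cell, matrix and cuticle lists together held 54 tested genes, Crys among them, 26 higher and 7 lower, and 17 higher and 8 lower when scaled by library totals alone. Beside these lists, together or each alone, 19.1% of all 8010 tested genes were higher and 17.9% lower. Under library totals 865 of all tested genes were higher and 2207 lower. The filter admits a gene through 1 day alone, as with Cht5 (6, 2 and 5 counts at day 5), so tested genes do not stand for the lists.

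**Figure D4:**
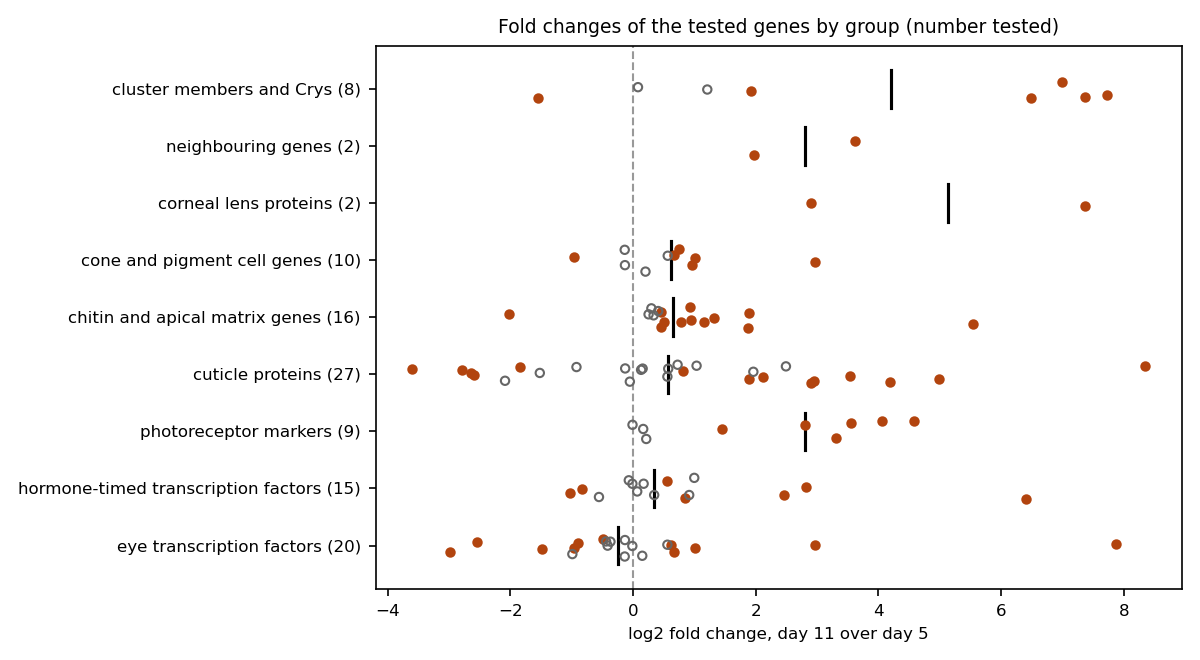
Log2 fold change of day 11 over day 5 for the tested genes of each group, with the number tested in brackets. Filled points passed an adjusted p of 0.05, the bar is the group's median, and the dashed line is the median of all genes (-0.01); 4 of the 8 members lie above 6, and CG13046 at -1.54 lies among the falls.

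Timing and eye identity genes were mixed. Beside each list here, 19.1% of all 8010 tested genes were higher and 17.9% lower. Of 15 tested hormone-timed transcription factor and response genes 5 rose and 2 fell (median 0.34). Those that fell were Hr78 (log2 fold change -1.03) and Eip74EF (-0.83). Eip93F, an adult-stage specifier, rose by 6.41 on the log2 scale (edgeR adjusted p = 6.34e-07), E23, an ABC transporter gene of the hormone response, by 2.82, ftz-f1 by 0.84 and Eip75B by 0.55. The call of Eip75B was lost when scaled by library totals (0.29). Of 20 eye transcription factor genes 5 rose and 6 fell (median -0.25), and their summed level of 822.6 to 1253 CPM at day 11 and 940.9 to 1158 CPM at day 5 showed genes of the labelled tissue on both days. Of 9 tested photoreceptor markers 6 rose and none fell (median 2.81). None was lower at an unadjusted p of 0.05 or by DESeq2 or limma-voom, and the rest of the list was too low to test or at 0. Of the 6, Arr1, ninaC and Gbeta76C passed the filter through day 11, with 4, 10 and 20 counts over the day 5 libraries. The tested markers that were not called, elav, norpA and Galphaq, had log2 fold changes of -0.01, 0.22 and 0.17. Of the 5 opsin genes on that list, which mark mature photoreceptors, ninaE and Rh3 were at 0 in all libraries. Rh6 had 39 tags at day 11 and 14 at day 5, Rh5 had 18 at day 11 and 3 at day 5, and Rh4 had 16 at day 11 and 22 at day 5.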

How the data were processed

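The authors deposited raw counts, whole numbers for each gene and library, and these were used. A QuantSeq forward kit was used on polyadenylated RNA, per the labels' protocols; per the submitters' processing notes, the tools include FastQC, cutadapt and STAR 2.6.1d, with build dm6. The annotation, counting program, strand setting and handling of multiply matching reads were not given in the sources used here. Samples were grouped by the day in the labels.

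After a filter on low counts (filterByExpr) and TMM scaling, edgeR 4.0.16 in R 4.3.3 fitted day 11 over day 5 by its quasi-likelihood test, robust and two-sided. P-values were adjusted over 8010 genes by Benjamini-Hochberg, with a threshold of 0.05. CPM are TMM-scaled. SE and 95% intervals are those implied by that test. Pooled ratios of low genes carry exact counting intervals, which cover counting error only. Loci are from Ensembl's gene annotation, on release 6 of the genome (dm6); 16522 symbols had 1 locus, 205 none. No label says whether a day's libraries are separate cultures, so the p-values cover these samples' spread, which may be technical; chi-square per degree of freedom between libraries of a day was 8.45 to 86.7, so no pair differed by less than sampling noise. The fit was tested on simulated counts.

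The members and lists were chosen with earlier results of these data known. Named genes were every member with a count, tested neighbours and the lens list. From other lists they were up to 4 called genes of at least 5 CPM with the smallest p, some given here only as counts. The neighbours CG13070, CG4950, CG4962 and CR32160, the flanking genes named here, the glue genes and the opsins were named after their values were seen. So were grh, elav, norpA, Galphaq, Arr1, ninaC, B-H2, Hr78 and Eip74EF. The symbol Cpr, not a cuticle gene, was left out of the cuticle list, and 4 salivary gland symbols were not found. Alternatives were DESeq2 1.42.0 size factors and Wald test, library totals, no CR40469 and CR34335, no filter, at least 5 CPM in 3 libraries, limma-voom (limma 3.58.1), no robust shrinkage, a block for the replicate number, and leaving out each library. Protein and promoter sequences were not analysed here.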

Additional observations from a re-analysis of the deposited data

How the results depend on the processing

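Crys, CG13054, CG13053, CG34247, CG13044 and the neighbour CG13071 kept direction and call in all 15 other settings. CG13067, not called in any of them where it was fitted, changed sign with library totals (-0.16), limma-voom (-0.72) and the replicate block (-0.059), and with a library left out ranged from -0.60 to 0.64. Called neighbours numbered 4 with no low-count filter (CG13071, CG13070, CG4950 and CG13038), 1 with at least 5 CPM in 3 libraries, where 1 was tested, and 1 to 2 with a library left out (CG13071 and CG4962 without day 5 replicate 2, where CG13038 was lost). Called members numbered 7 with no filter (all higher, CG13055 and CG13056 among them, CG13046 not) and 5 to 7 with a library left out (7 with retinin). Scaling by library totals moved the genome-wide median by -0.27 (log2) and gave 865 higher and 2207 lower genes, against 1533 and 1432; called members were 5 higher and 1 lower under both. Same-numbered libraries of the days correlated by 0.05, 0.19 and -0.09 in their deviations, against -0.23 to 0.17 for different numbers. With 3 libraries a day this cannot decide whether the numbers pair them. The replicate block called 6 members, 2 neighbours and 2940 genes, against 6, 2 and 2965. Of 8 muscle markers DESeq2 called 5 lower, against 1, and of 6 haemocyte markers limma-voom called 1 higher, against 4. The cause of these changes was not tested, save that fewer genes are fitted under the stricter filter. Depth limits the 22 members that were not fitted. Among them, CG13040 shares 701 nt on its own strand with CG13039, and CG13041 shares 87 nt with CR45664. How tags in such overlaps were counted was not given, and their part in the low counts was not tested.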
